A study of Mus musculus with 78 samples.

Results

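The 10 mouse genes Trim28, Trim24, Trim33, Trim66, Setdb1, Atf7ip, Cbx1, Cbx3, Cbx5 and Chd4 were followed across nascent RNA, mature RNA and chromatin data of embryonic stem cells from which the TRIM28 protein had been degraded. They were chosen by name, and each was matched to 1 gene ID of the 54446 in the RNA-seq tables and of the 54435 in the nascent RNA table. The tagged line was made in V6.5 mouse embryonic stem cells (mESCs) by inserting the red fluorescent protein mRuby2, a P2A peptide and an FKBP degradation tag at the start of the Trim28 coding sequence. Single colonies were picked, so that the line is a clone, and every treated and control library of the time course carries the tag. Addition of dTAG-13 at 500 nM brings the tagged protein to a ubiquitin ligase, and the solvent DMSO served as control.

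RNA-seq of this line covered DMSO, labelled 0 h, and dTAG-13 at 2 h, 6 h, 24 h and 96 h. TT-SLAM-seq, which selects RNA made during a short pulse of 4-thiouridine, covered DMSO (also labelled 0 h) and dTAG-13 at 2 h, 6 h and 24 h. A derivative of the tagged line (shREPEATS, here the hairpin line) carries doxycycline-inducible hairpin RNAs against families of endogenous retroviruses (ERVs), and was sampled at 24 h with DMSO, dTAG-13, or dTAG-13 with doxycycline (Dox). The labels give a Dox pretreatment for all 3 of its groups, but only 1 has Dox in its name. Untreated parental V6.5 mESCs and DMSO-treated neural progenitor cells (NPCs), whose line of origin is not given in the labels, completed the RNA-seq. Each of these groups had 3 libraries. ChIP-seq peaks of H3K9me3, H3K27Ac, RNA polymerase II (RNAPII) and the Mediator subunit MED23 came from the tagged line with DMSO or after 24 h of dTAG-13. The labels describe removal of feeder fibroblasts for the time course, and culture on feeders with no removal for the hairpin line and the parental cells, whereas the study's methods describe removal for its RNA-seq without naming an exception. The hairpin libraries were made from total RNA, the others from mRNA.

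TRIM28 (also KAP1) is a corepressor without DNA binding of its own that KRAB zinc finger proteins bring to ERVs and other targets. Its bromodomain region recruits SETDB1, the methyltransferase that writes H3K9me3, and the NuRD complex with its remodeller CHD4, and a motif in TRIM28 binds HP1 proteins, which in turn read H3K9me3. ATF7IP stabilises SETDB1 and keeps it in the nucleus, while TRIM24, TRIM33 and TRIM66 share the domain order of TRIM28 and form the same subfamily.

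The tagged site is shown because it carries the degradation tag, and the starts of 3 members because RNAPII and MED23 peaks are described there further on. The guide used for the knock-in matched a single site in Trim28, at chr7:13024712-13024731 on the plus strand of mm10, and covers the start codon in exon sequence, which is given in capitals.
Trim28 guide: cgtgtgaATGgcggcctcgg
With its adjacent PAM in capitals, the same site reads as follows.
Trim28 guide and PAM: cgtgtgaatggcggcctcggCGG
The start codon occupies positions 13024719 to 13024721, downstream of the promoter window. The promoter windows that follow are 300 bases around the annotated start, most of them upstream, taken from RefSeq (GRCm38.p6), with GGGCGG, the core of the GC box that Sp1-family factors recognise, in capitals on either strand (GGGCGG or CCGCCC). Trim28 is the degraded protein's gene, Trim24 its paralog with an H3K9me3 domain just downstream, and Cbx1 the HP1 gene whose RNA fell furthest at 96 h.
Trim28, chr7:13023902-13024201, plus strand: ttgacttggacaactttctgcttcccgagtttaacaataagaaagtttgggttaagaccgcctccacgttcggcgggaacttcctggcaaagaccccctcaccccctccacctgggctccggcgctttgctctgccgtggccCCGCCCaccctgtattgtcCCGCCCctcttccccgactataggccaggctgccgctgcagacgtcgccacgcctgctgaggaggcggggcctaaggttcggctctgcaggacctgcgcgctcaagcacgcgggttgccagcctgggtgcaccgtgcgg
Trim24, chr6:37870561-37870860, plus strand: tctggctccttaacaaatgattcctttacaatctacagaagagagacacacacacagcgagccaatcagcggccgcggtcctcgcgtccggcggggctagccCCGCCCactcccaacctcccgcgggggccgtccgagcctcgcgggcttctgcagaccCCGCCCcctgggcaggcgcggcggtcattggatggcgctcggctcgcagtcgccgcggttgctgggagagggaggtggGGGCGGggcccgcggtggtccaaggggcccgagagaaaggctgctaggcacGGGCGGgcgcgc
Cbx1, chr11:96788885-96789184, plus strand: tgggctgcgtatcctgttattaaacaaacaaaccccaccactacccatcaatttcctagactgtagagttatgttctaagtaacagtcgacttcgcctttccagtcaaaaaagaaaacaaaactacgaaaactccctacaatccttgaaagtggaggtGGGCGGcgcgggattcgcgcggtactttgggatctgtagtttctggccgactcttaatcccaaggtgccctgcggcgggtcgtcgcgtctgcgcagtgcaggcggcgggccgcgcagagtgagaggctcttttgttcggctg
The Trim28 window held 2 copies of GGGCGG, the Trim24 window 4 and the Cbx1 window 1, at a GC content of 64%, 70.3% and 52.7%. Of the 10 members, 9 had a promoter in the RefSeq table, in 13 windows. GGGCGG occurred in 10 of these 13 windows, which belong to 8 of the 9 members, against 35.7% of all 32851 promoter windows. All windows, taken without regard to expression, held a median of 7 CpG sites. The member windows held 1 to 34, and the Trim28, Trim24 and Cbx1 windows shown 23, 33 and 22, so the background is not matched to the members. CACGTG, the E-box core, was found for Cbx5 only (7.15% of all windows), and the ETS-family motif CCGGAAG for Setdb1 only (8.86% of all windows). These matches are descriptions of the letters in the windows.

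TT-SLAM-seq libraries were scaled to between 6481999 and 24266191 reads, and a member's value rested on 223 to 6388 reads per library apart from Trim66, with 1 to 8. Relative depth of the RNA-seq libraries ranged from 0.334 to 1.71. The time course DMSO libraries summed 3424 to 3576 TPM (transcript abundance scaled by transcript length and library size) over 9 pluripotency markers, the 24 h libraries 2176 to 2285 and the 96 h libraries 382 to 443. Over 8 feeder fibroblast markers, of which 4 were under 1 TPM in every DMSO library and 1 was in every 96 h library, the sums were 21.5 to 22.2 TPM in DMSO, 26.5 to 28.9 at 24 h and 275 to 299 at 96 h. Over 6 endoderm markers they were 15.0 to 19.3 TPM in DMSO, 25.9 to 27.1 at 24 h and 78.5 to 83.4 at 96 h. NPC libraries expressed all 6 neural markers, at a sum of 3320 to 3364 TPM, and 6 of the 9 pluripotency markers were under 1 TPM there. These shifts move with the changes of the members at 24 h and 96 h and between lines, and their part in them was not tested. In bulk RNA, fewer cells of a type and less RNA per cell cannot be told apart. The study calls the replicates of the time course, TT-SLAM-seq and the hairpin line biological. Its TT-SLAM-seq methods also name technical replicates, merged for coverage tracks, without saying which libraries these were. Whether the replicates were separate cultures is not given in the sources used here, nor what the parental and NPC replicates are. The p-values thus measure the spread between these libraries, which may be technical.

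In DMSO-treated cells the members spanned a wide range of RNA levels, with Trim28 highest and Trim66 close to absent. Trim28 RNA was 624 ± 2.28 TPM (mean ± SD, n = 3, as throughout), followed by Cbx1 at 311 ± 4.48, Chd4 at 292 ± 5.53, Cbx3 at 243 ± 19.9 and Cbx5 at 192 ± 3.85. Trim24 (103 ± 4.35), Setdb1 (76.4 ± 1.81), Trim33 (57.9 ± 3.39) and Atf7ip (27.1 ± 1.08) came next. No neighbours in this order overlapped in their ranges over the libraries; Chd4 overlapped Cbx3 at 2 h, Cbx1 at 6 h and Trim28 in NPCs, and in the hairpin line with DMSO the ranges of Cbx3, Cbx1 and Chd4 overlapped in turn. Trim28 stood at percentile 98.6 of 12057 protein-coding genes with at least 1 TPM, Cbx1 at 96.8 and Atf7ip at 58.6. By 96 h of dTAG-13 the order had changed: Chd4 was highest at 240 ± 1.91 TPM, Trim28 followed at 192 ± 10.2, and Cbx1 had moved to 102 ± 1.65, below Trim24 at 128 ± 4.90.

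**Figure D1:**
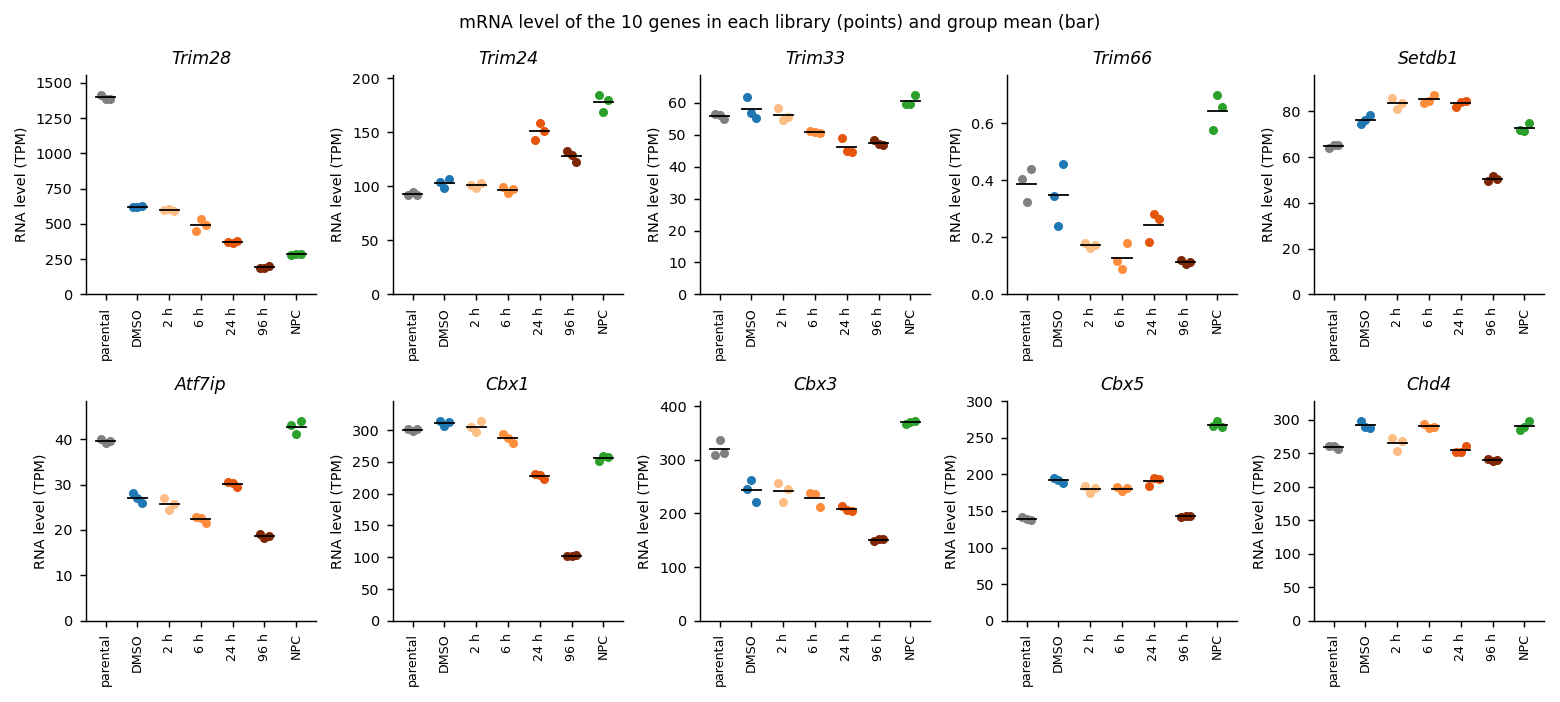
RNA level in TPM of each of the 10 genes (1 panel each, linear axes with their own scale) in every library of the parental line, the tagged line with DMSO or with dTAG-13 for 2, 6, 24 or 96 h, and NPCs. Points are libraries and bars are means of 3; the Trim28 panel runs from a mean of 1398 TPM in parental cells to 192 TPM at 96 h, and the Cbx1 panel drops mainly between 24 and 96 h.

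Trim66, which encodes a largely germline-associated relative, lay between 0.0893 and 0.700 TPM in all RNA-seq libraries. Its highest values were those of the 3 NPC libraries, 0.574, 0.700 and 0.655 TPM, above every mESC library, and it failed the filter on low values in every experiment. The other 9 members passed that filter everywhere, so each count below is out of 9. A member counts as higher or lower where limma, fitted over all genes of the experiment, gave a Benjamini-Hochberg adjusted p below 0.05. Background shares over all genes are from this fit. None was counted after centring each library on its median gene or in a count-based fit, so member counts from those settings have no background beside them. Fold changes are on the log2(value + 0.5) scale, with ± for the standard error. All time points were compared with the same 3 DMSO libraries, which the parental and NPC comparisons share. By the labels these, and the DMSO libraries of TT-SLAM-seq, are 0 h controls that are not matched to each time. Time in culture and dTAG-13 thus cannot be told apart in the comparisons over time.

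Nascent RNA of Trim28 itself was lower at each time after dTAG-13, whereas most of its partners did not pass the test. In TT-SLAM-seq, values were deposited as FPKM, computed per length of the whole gene with introns. At 2 h Trim28 was the single member called, with 0 higher and 1 lower (background over 13357 genes 1.58% higher and 1.97% lower). At 6 h there were 1 higher and 1 lower (7.82% and 1.27%), and at 24 h 2 higher and 1 lower (32.3% and 5.59%). With each library centred on its median gene the 2 h counts stood as they were, no member was higher and 1 was lower at 6 h, and 1 was higher and 3 were lower at 24 h, so that the balance of directions turned there. The single member under an unadjusted p of 0.05 at 2 h was again Trim28, and a count-based fit (limma-voom on the reads recovered from FPKM) called 1, 3 and 4 members at the 3 times. These were in part other members. With median-ratio size factors voom at 6 h called Trim24 (0.29, adjusted p 0.0325) and Trim33 (0.40, 0.0343) but not Cbx5 (0.169). At 24 h it called Cbx1 (-0.50) and Cbx5 (-0.26) as lower, but not Trim33 (0.252). With summed reads as library size, voom called Chd4 at 24 h (0.70). The median log2 change of the members was 0.05, 0.11 and 0.15, against -0.05, 0.06 and 0.21 over all genes.

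Trim28 nascent RNA was 1.98, 1.74 and 1.89 FPKM in the DMSO libraries, 1.48, 1.34 and 1.19 after 2 h, 1.48, 1.36 and 1.44 after 6 h, and 1.36, 1.36 and 1.33 after 24 h. All 9 dTAG-13 libraries lay below all DMSO libraries. The log2 change was -0.37 ± 0.07 at 2 h, -0.30 ± 0.07 at 6 h and -0.36 ± 0.07 at 24 h, with adjusted p of 0.0231, 0.0278 and 0.00256. The 24 h call held whichever library was left out. The 2 h call was lost without DMSO replicate 1, DMSO replicate 2 or 2 h replicate 2 (adjusted p 0.0561 to 0.081), and the 6 h call was lost without any 1 of its 6 libraries (0.0552 to 0.0975). Zbtb45 overlaps Trim28 on the opposite strand, and the TT-SLAM-seq counting used strand.

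Among the other TRIM genes, Trim33, whose protein acts with SMADs in the response to nodal and TGF-beta signals, had 1.63, 1.56 and 1.79 FPKM with DMSO and 2.13, 2.81 and 2.11 after 24 h. The groups did not overlap, and 24 h replicate 2 was the highest. The change of 0.39 ± 0.14 passed (adjusted p 0.0468), but not with any 1 of the 6 libraries left out (0.0536 to 0.169), nor with libraries centred on the median gene, where it was 0.15. After 6 h Trim33 had 2.46, 2.16 and 2.45 FPKM, again without overlap, and its change of 0.40 was not called. Trim24, whose protein reads unmodified H3K4 together with acetylated H3K23 and acts on nuclear receptor and p53 pathways, had 2.55, 2.33 and 2.51 FPKM with DMSO and 3.36, 2.99 and 3.40 after 6 h, without overlap. Its 6 h change of 0.34 ± 0.10 had an adjusted p of 0.0606. At 24 h it had 2.85 ± 0.204 FPKM, again without overlap, with a change of 0.17 ± 0.10 (adjusted p 0.196; -0.07 after centring).

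Atf7ip had 1.06, 1.13 and 1.08 FPKM with DMSO and 1.57, 1.82 and 1.70 after 24 h, a gap wider than the spread of either group. It rose by 0.47 ± 0.09 (adjusted p 0.00211), and by 0.23 with an adjusted p of 0.0346 after centring, since the median gene shifted by 0.24 at 24 h. Cbx5, which encodes HP1alpha, had 3.03, 2.85 and 2.97 FPKM with DMSO and 3.59, 3.47 and 3.64 after 6 h, again without overlap. It rose by 0.24 ± 0.05 at 6 h (adjusted p 0.0279), a call lost without DMSO replicate 1 or 2 or without 6 h replicate 1 or 3 (0.0737 to 0.107) and with centring (0.0707), and at 24 h it was 0.03 (-0.21 after centring, adjusted p 0.0133). Cbx1 was -0.18 at 24 h, not called, and -0.43 after centring (adjusted p 0.00528). Setdb1, Cbx3 and Chd4 were called at no time in this fit, and Chd4 had the widest spread, with 1.65, 2.62 and 1.61 FPKM at 24 h against 1.15, 1.17 and 1.43 in DMSO.

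Mature RNA of the members shifted downward as the time course went on. Of the 9, 1 was higher and 1 lower at 2 h (background over 17922 genes 8.25% higher and 7.02% lower), and the pair of counts was 1 and 5 after 6 h (18.4% and 15.5%), 3 and 5 after 24 h (42.9% and 25.0%), and 1 and 8 after 96 h (42.9% and 37.4%). From 24 h to 96 h, 0 rose and 8 fell (37.4% and 42.0%); 8 of the 9 had an unadjusted p below 0.05 there. The members' median log2 change went from -0.05 at 2 h to -0.09, -0.20 and -0.52, while the median over all genes was -0.02, 0.03, 0.13 and 0.05. Centring each library on its median gene shifts the changes down by 0.29 at 24 h and 0.28 after 96 h, and 1 member was then higher and 8 were lower at 24 h, against 0 and 8 after 96 h. At 6 h it gave 0 higher and 8 lower, and at 2 h 1 higher and 2 lower. The median change over all genes was then also below 0, at -0.07, -0.16 and -0.23 after 6, 24 and 96 h. Without a share of all genes called after centring, these member counts cannot be read as particular to the members.

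Trim28 RNA itself was the member that fell most. Its libraries held 622, 622 and 626 TPM with DMSO, 600, 607 and 591 after 2 h, 452, 538 and 495 after 6 h, 369, 365 and 382 after 24 h, and 186, 185 and 204 after 96 h. Each group lay wholly below the group before it. The log2 change was -0.06 ± 0.05 at 2 h (adjusted p 0.52), then -0.34 ± 0.05, -0.74 ± 0.05 and -1.70 ± 0.05 (adjusted p 0.00042, 2.69e-08 and 7.36e-13). With no data on RNA stability here, the nascent and mature values stand side by side: nascent Trim28 was lower already at 2 h, and mature RNA was lower from 6 h on. In RNA-seq, reads of Zbtb45 on the opposite strand (28.2 TPM with DMSO) could not be separated unless strand was used in quantification, which is not given in the sources used here.

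From 24 h on Trim24 took the opposite direction to Trim28 and Trim33. Its 6 h libraries, at 99.5, 93.5 and 97.3 TPM, overlapped DMSO, with a change of -0.09 ± 0.05 (adjusted p 0.131) that was called at -0.19 after centring (adjusted p 0.00487). It had 104, 98.6 and 107 TPM with DMSO, 143, 159 and 151 after 24 h and 133, 129 and 123 after 96 h, with both later groups wholly above DMSO. It rose by 0.54 ± 0.05 at 24 h (adjusted p 1.47e-07; 0.25 after centring) and by 0.31 ± 0.05 at 96 h (adjusted p 2.13e-05), the latter being 0.03 and not called after centring. From 24 h to 96 h it fell by 0.23. Trim33 had 61.8, 56.8 and 55.3 TPM with DMSO, 51.1, 50.7 and 50.6 after 6 h, 49.0, 44.8 and 44.6 after 24 h and 48.4, 47.0 and 46.6 after 96 h. All later libraries lay below all DMSO ones, and the fall was 0.19 ± 0.05, 0.33 ± 0.05 and 0.29 ± 0.05 on the log2 scale (adjusted p 0.00792, 2.69e-05 and 5.33e-05). Its nascent RNA at 24 h differed from DMSO in the other direction, as given above.

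Setdb1 and Atf7ip, the methyltransferase and its stabilising partner, both ended lower, after different courses. Setdb1 had 74.7, 76.3 and 78.3 TPM with DMSO, 85.8, 81.2 and 83.6 after 2 h, 83.9, 84.5 and 87.4 after 6 h, 82.1, 84.1 and 84.4 after 24 h, and 49.6, 51.6 and 50.6 after 96 h. The 2 h to 24 h libraries were all above DMSO and the 96 h libraries all below it. The changes were 0.13 ± 0.03, 0.16 ± 0.03, 0.13 ± 0.03 and -0.59 ± 0.03 (adjusted p 0.0182, 0.00258, 0.00314 and 3.83e-10). The 2 h call was lost without DMSO replicate 1 or 2 or without 2 h replicate 1 or 3 (adjusted p 0.0555 to 0.0834), and after centring the 6 h change was 0.07 and not called (adjusted p 0.102) and the 24 h sign turned to -0.16. Cers2 overlaps Setdb1 on the opposite strand with 78.1 TPM with DMSO. Atf7ip had 28.2, 27.1 and 26.0 TPM with DMSO, 22.9, 22.5 and 21.6 after 6 h, 30.7, 30.4 and 29.5 after 24 h, and 19.1, 18.3 and 18.7 after 96 h. It was below DMSO at 6 h (-0.27 ± 0.05), above it at 24 h (0.15 ± 0.05, but -0.13 after centring) and below it again at 96 h (-0.52 ± 0.05).

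The 3 HP1 genes fell unequally. Cbx1, encoding HP1beta, had 315, 306 and 313 TPM with DMSO, 294, 288 and 279 after 6 h, 230, 229 and 224 after 24 h, and 101, 101 and 104 after 96 h, each group wholly below the previous. It fell by 0.12 ± 0.03, 0.45 ± 0.03 and 1.60 ± 0.03 on the log2 scale (adjusted p 0.011, 1.94e-08 and 7.54e-15). The 6 h call was lost without 6 h replicate 3 (adjusted p 0.0533). Together with Trim28 it was 1 of 2 members past 2-fold at 96 h, both lower. Over all 17922 genes, 2228 were called lower and 3634 higher past 2-fold.

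Cbx3, encoding HP1gamma, had 246, 262 and 222 TPM with DMSO, 214, 207 and 204 after 24 h and 148, 152 and 152 after 96 h, without overlap with DMSO at either time. It fell by 0.22 ± 0.06 and 0.69 ± 0.06 (adjusted p 0.00702 and 1.39e-07). Cbx3 shares sequence with 8 annotated pseudogenes that held 22.7% to 35.3% of their summed TPM, and with those added the changes were -0.22 and -0.67. Cbx5 had 196, 192 and 188 TPM with DMSO, 184, 195 and 194 after 24 h, and 142, 143 and 143 after 96 h. The 24 h libraries overlapped DMSO, with a change of -0.01 ± 0.03 that became -0.30 after centring, and all 96 h libraries were lower, by 0.43 ± 0.03 (adjusted p 8.86e-09). At 6 h Cbx5 was called at -0.09 (adjusted p 0.0364), a call lost without DMSO replicate 1 or 2 or without 6 h replicate 2 or 3 (0.068 to 0.132) and with the replicate number as a block (0.0529).

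Chd4, the main remodelling ATPase of NuRD in mESCs, had, with Trim33, the smallest fall at 96 h. It had 298, 290 and 288 TPM with DMSO, 273, 253 and 269 after 2 h, 252, 252 and 261 after 24 h, and 242, 238 and 240 after 96 h. Those 3 groups were wholly below DMSO, whereas the 6 h libraries (294, 288 and 289) overlapped it. The changes were -0.14 ± 0.03 at 2 h (adjusted p 0.00964, or 0.0502 without DMSO replicate 1), -0.20 ± 0.03 at 24 h and -0.28 ± 0.03 at 96 h (adjusted p 8.62e-05 and 1.33e-06). From 24 h to 96 h it was -0.09, and that call was lost without 24 h replicate 3 or without 96 h replicate 2 or 3 (0.0574 to 0.0965).

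**Figure D2:**
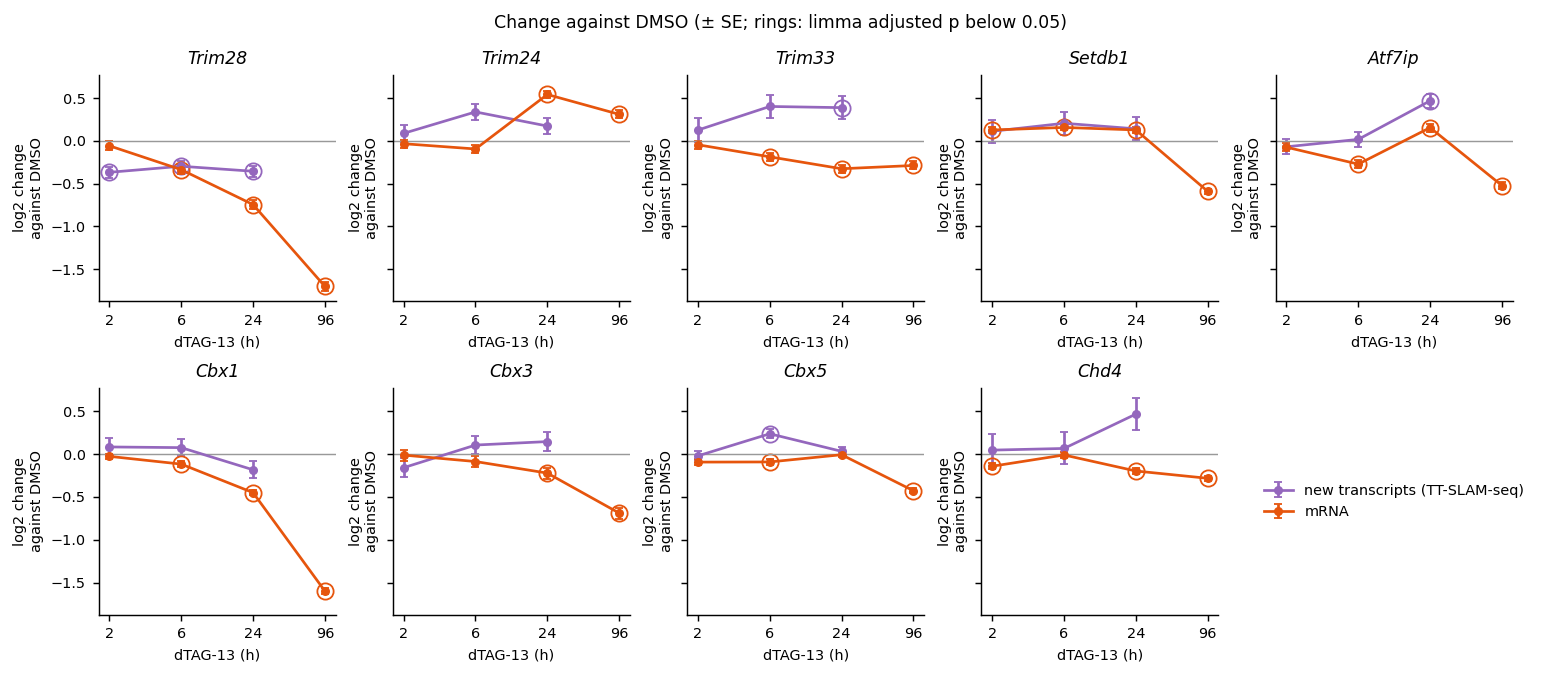
Log2 change against DMSO (± SE) of the 9 tested genes over hours of dTAG-13, for nascent RNA (TT-SLAM-seq, up to 24 h) and mature RNA (RNA-seq, up to 96 h); rings mark limma adjusted p below 0.05. Mature RNA of Trim28 and Cbx1 reached -1.70 and -1.60 at 96 h, Trim24 stayed above 0 from 24 h on, and nascent Trim28 stayed between -0.37 and -0.30.

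The hairpin line asks whether the 24 h changes are also seen when ERV families are knocked down. With dTAG-13 alone, 2 members were higher and 2 lower (background over 16166 genes 41.2% higher and 12.8% lower); with dTAG-13 and Dox against DMSO, limma called 0 higher and 0 lower (0.0495% and 0.0124%, 8 and 2 genes), and no member had an unadjusted p below 0.05. With Dox and dTAG-13 against dTAG-13 alone, 3 were higher and 2 lower (17.5% and 29.3%), or 5 and 2 after centring. The members' median log2 change in the 3 comparisons was -0.02, 0.07 and 0.03, against 0.14, 0.09 and -0.04 over all genes. The comparisons share libraries in pairs. The summed pluripotency markers moved alongside, at 1410 to 1565 TPM with DMSO, 821 to 834 with dTAG-13 and 1473 to 1506 with dTAG-13 and Dox, while feeder markers were at 102 to 122 TPM throughout.

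Trim28 RNA was 252, 283 and 276 TPM with DMSO, 213, 203 and 203 with dTAG-13, and 285, 284 and 284 with dTAG-13 and Dox. The dTAG-13 libraries were below both other groups. The change was -0.39 ± 0.05 with dTAG-13 (adjusted p 3.15e-05) and 0.46 ± 0.05 on adding Dox (adjusted p 1.09e-05). Cbx1 followed the same course, with 181, 202 and 195, then 151, 147 and 149, then 195, 199 and 191 TPM. It fell by 0.37 ± 0.04 with dTAG-13 and was 0.39 ± 0.04 higher with Dox added (adjusted p 3.1e-05 and 2.85e-05).

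Trim24 and Cbx5 moved the other way. Trim24 had 52.3, 57.3 and 54.9 TPM with DMSO, 89.2, 83.1 and 94.7 with dTAG-13, and 56.4, 58.3 and 57.4 with Dox added. Its dTAG-13 libraries stood clear of all others, at 0.69 ± 0.05 against DMSO, and adding Dox gave -0.63 ± 0.05 (adjusted p 1.03e-06 and 2.72e-06). Cbx5 had 141, 157 and 156, then 188, 180 and 191, then 159, 164 and 153 TPM, again highest in every dTAG-13 library. It rose by 0.30 ± 0.05 (0.13 after centring) and fell by 0.23 ± 0.05 with Dox (adjusted p 0.000332 and 0.00251). Against DMSO, the group with both agents lay within 0.11 log2 units for all 9 tested members. Its largest difference was -0.11 ± 0.06 for Atf7ip, and its adjusted p-values ran from 0.327 for Chd4 upward. These groups differ in Dox as well as in ERV knockdown, and the 2 cannot be told apart in the libraries used here.

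The other 5 members did not pass with dTAG-13 in the hairpin line. After centring (a shift of 0.16) Setdb1 at -0.26, Atf7ip at -0.27, Cbx3 at -0.19 and Chd4 at -0.15 were also lower, making 2 higher and 6 lower. Without DMSO replicate 1, Setdb1 (adjusted p 0.00895) and Atf7ip (0.035) passed uncentred, and without DMSO replicate 2 Trim33 did (0.0332). That DMSO replicate 1 was the lowest of its group for all 9 tested members. Setdb1 had 43.6, 41.8 and 43.7 TPM with dTAG-13 and 48.2, 49.5 and 47.7 with Dox added. This difference of 0.17 ± 0.05 had an adjusted p of 0.0173, which was lost without dTAG-13 replicate 2 or without replicate 2 of the Dox group (0.0601 to 0.066).

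**Figure D3:**
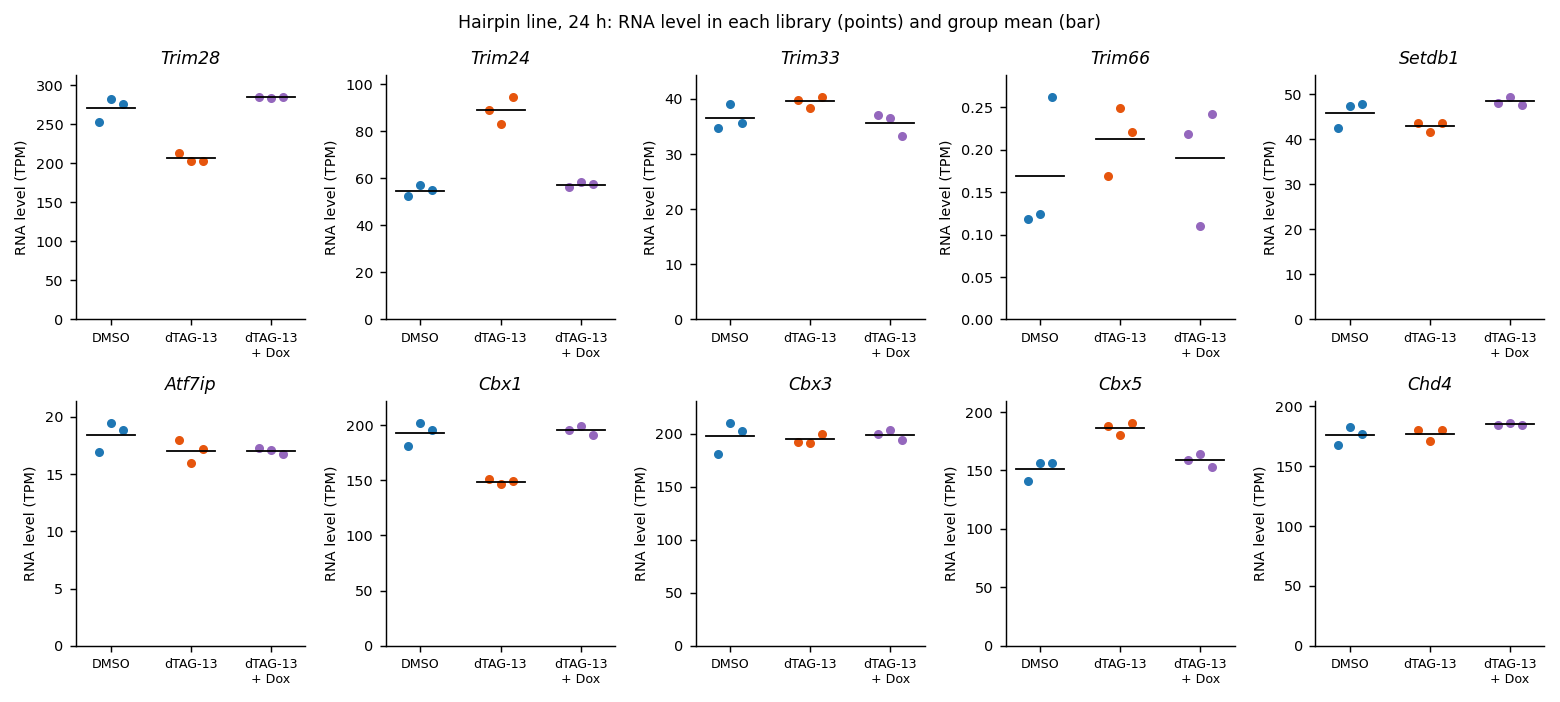
RNA level in TPM per library of the member genes in the hairpin line with DMSO, dTAG-13, or dTAG-13 and Dox for 24 h (3 libraries each). Trim28 and Cbx1 were lowest, and Trim24 and Cbx5 highest, in all 3 dTAG-13 libraries.

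The 24 h response was compared directly between the hairpin line and the time course with an interaction term. It was called for 6 members, 4 with a more positive and 2 with a more negative change in the hairpin line (background over 17653 genes 26.2% and 25.2%); the members' median was 0.20 against 0.00 over all genes. Trim28 differed by 0.36 ± 0.07 (adjusted p 0.000624), Trim33 by 0.44 ± 0.08 (0.000828), Cbx5 by 0.31 ± 0.07 (0.00219) and Chd4 by 0.21 ± 0.06 (0.01). Setdb1 differed by -0.22 ± 0.07 (0.016) and Atf7ip by -0.26 ± 0.09 (0.0235), neither of which passed after centring (-0.10 and -0.14, adjusted p 0.062 and 0.0876). The Atf7ip call was also lost without time course DMSO replicate 3, hairpin DMSO replicate 2 or 3, or hairpin dTAG-13 replicate 2 (0.0526 to 0.0582). Trim24 (0.15, adjusted p 0.147) and Cbx1 (0.08, adjusted p 0.282) did not pass; after centring, which gave 7 higher and 0 lower, both did. Cbx3 was 0.20 (adjusted p 0.0817), but passed at 0.27 with its pseudogenes added (adjusted p 0.0375) and without time course DMSO replicate 3 or hairpin DMSO replicate 2 (0.019 to 0.0456). Line and library kit, and by the labels the feeders, differ together between these experiments and cannot be told apart. By the labels the DMSO control differs with them, at 24 h in the hairpin line and 0 h in the time course.

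Parental cells and NPCs give the members' levels without the tag and in another cell type. Against the tagged line with DMSO, 3 members were higher and 4 lower in parental cells (background over 17458 genes 25.0% higher and 41.0% lower), and 4 higher and 3 lower in NPCs (49.5% and 39.5%). The members' median was -0.05 in parental cells and 0.06 in NPCs, against -0.09 and 0.15 over all genes. Centring moves the changes by 0.19 upward in parental cells, giving 5 higher and 1 lower, and by 0.40 downward in NPCs, giving 4 higher and 5 lower.

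Trim28 was the member with the largest difference in both. Its parental libraries had 1418, 1389 and 1387 TPM, all above the tagged line by 1.16 ± 0.02 log2 units (adjusted p 5.64e-10). Atf7ip (40.1, 39.1 and 39.6 TPM) and Cbx3 (310, 337 and 312 TPM) were also higher in every parental library, by 0.54 ± 0.04 and 0.39 ± 0.06 (adjusted p 1.63e-06 and 0.000181). Cbx5 was lower, with 142, 139 and 137 TPM and a change of -0.46 ± 0.02 (adjusted p 2.27e-07). Setdb1 (-0.23 ± 0.03), Chd4 (-0.17 ± 0.02) and Trim24 (-0.15 ± 0.04) were lower as well, and after centring none of these 3 was called (-0.04, 0.02 and 0.04). Trim33 (-0.05) and Cbx1 (-0.05) were not called, and were higher by 0.14 and 0.15 after centring; Cbx1 also passed, at a negative change, without DMSO replicate 2 (adjusted p 0.0395). Feeder markers summed to 103 to 105 TPM in parental libraries, and tag, DMSO and, by the labels, feeders cannot be told apart in this comparison.

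In NPCs, Trim28 RNA was 284, 291 and 285 TPM, all below the tagged mESCs, with a change of -1.12 ± 0.02 (adjusted p 2.06e-11). Cbx1 was also lower, with 252, 259 and 258 TPM and a change of -0.28 ± 0.02 (adjusted p 5.48e-07). Trim24 had 185, 169 and 180 TPM, the highest of all groups, and was higher by 0.78 ± 0.04 (adjusted p 3.19e-08). Atf7ip (43.1, 41.1 and 44.0 TPM), Cbx3 (366, 370 and 372 TPM) and Cbx5 (266, 273 and 264 TPM) were higher in every NPC library, by 0.65 ± 0.04, 0.61 ± 0.06 and 0.48 ± 0.02. With its pseudogenes added, Cbx3 was higher by 0.37. Setdb1 overlapped the tagged line, with a change of -0.07 ± 0.03 whose call (adjusted p 0.0371) was lost without replicate 2 or 3 of the tagged line or without NPC replicate 1 or 2 (0.07 to 0.122); after centring it was -0.47 (adjusted p 6.95e-08). Trim33 (0.06) and Chd4 (-0.01) were not called, but stood at -0.33 and -0.40 after centring, and Trim33 passed uncentred, at a positive change, without DMSO replicate 1 (0.0116).

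Shares within a family do not depend on the scale of a library, but they sum to the whole, so that when the share of Trim28 falls those of the other TRIM genes together must rise. Trim28 made up 79.4% ± 0.551 of the summed TPM of the 4 TRIM genes with DMSO, 65.4% ± 1.08 at 24 h and 52.2% ± 2.07 at 96 h. It was 90.4% ± 0.157 in parental cells and 54.5% ± 1.20 in NPCs. The share of Trim24 ran against it, from 13.2% ± 0.455 to 26.5% ± 1.31 and 34.9% ± 1.72, with 6.00% ± 0.128 in parental cells and 33.9% ± 1.23 in NPCs. In the hairpin line the Trim28 share was 74.7% ± 0.466, 61.6% ± 1.39 and 75.3% ± 0.413, and the Trim24 share 15.2% ± 0.224, 26.5% ± 1.28 and 15.2% ± 0.273, with DMSO, dTAG-13, and dTAG-13 and Dox.

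Of the 3 HP1 genes, Cbx1 held 41.7% ± 1.50 of their summed TPM with DMSO, 36.3% ± 0.310 at 24 h and 25.9% ± 0.280 at 96 h, while Cbx5 went from 25.7% ± 0.374 to 30.5% ± 0.992 and 36.1% ± 0.226. In the hairpin line, Cbx1 held 35.6% ± 0.421, 28.1% ± 0.445 and 35.3% ± 0.197, and Cbx5 27.9% ± 0.326, 35.1% ± 0.347 and 28.7% ± 0.207. Trim24 and Cbx5 thus gained share from 24 h to 96 h while their own levels changed by -0.23 and -0.42 on the log2 scale. In NPCs Cbx3 held the largest share at 41.4% ± 0.268, with Cbx1 at 28.7% ± 0.187. Cbx3 was also largest in parental cells, at 42.05% ± 1.26 with Cbx1 at 39.6% ± 0.867, and at 96 h, at 38.1% ± 0.237. By group mean it was largest in the hairpin line too, at 36.5% ± 0.504, 36.8% ± 0.446 and 36.0% ± 0.0997. Groups of 3 libraries cannot give less than p = 0.1 in an exact two-sided permutation test. That value was reached for Trim28, Trim24, Cbx1 and Cbx5 at 24 h and 96 h, adjusted to 0.157 over 77 comparisons, so none passed. In nascent RNA the Trim28 share of the 4 TRIM genes, per gene span, was 31.2% ± 0.840 with DMSO and 22.9% ± 1.73, 20.3% ± 0.563 and 20.7% ± 1.76 at 2, 6 and 24 h. The annotated Trim28 span of 31921 bases begins at 12999114, far upstream of the RefSeq promoter window at 13023902 to 13024201. Those upstream bases enter the divisor of its FPKM. The size of the nascent share therefore cannot be set beside that in mature RNA, whereas the times share 1 divisor.

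**Figure D4:**
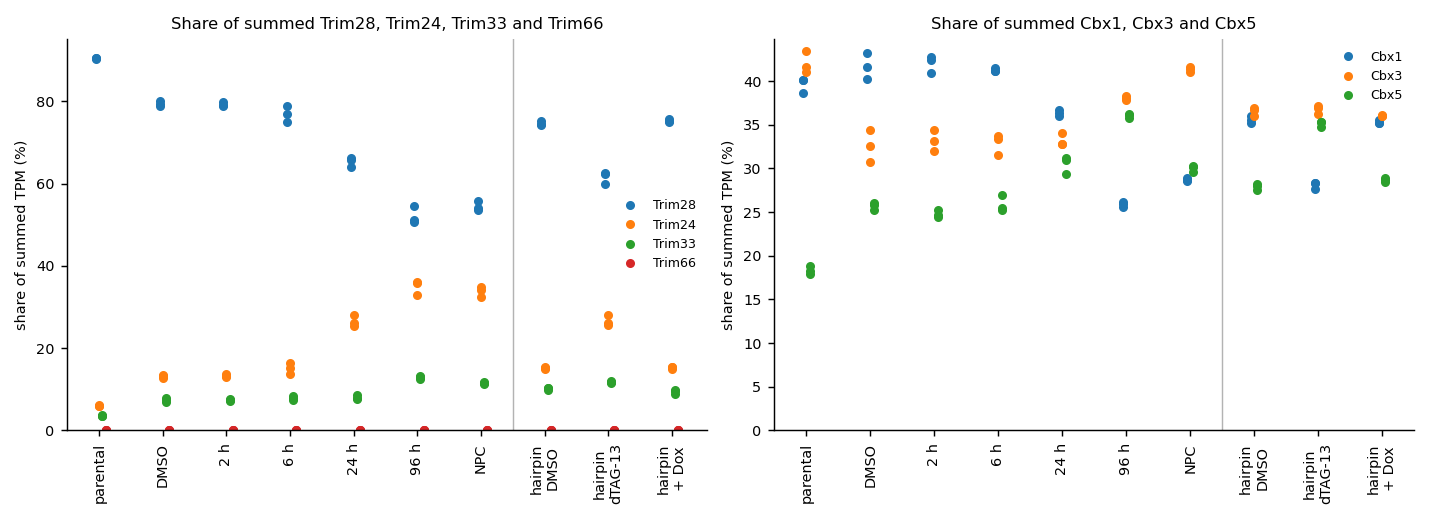
Percent of the summed TPM of the TRIM genes (Trim28, Trim24, Trim33, Trim66) and of the HP1 genes (Cbx1, Cbx3, Cbx5) by library in the 10 RNA-seq groups. Trim28 spans 90.4% in parental cells to 52.2% at 96 h, and Trim24 has the complementary course, which the sum fixes in part; the Cbx1 share is smallest at 96 h, at 25.9%.

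Over the 7 group means of the mRNA libraries, the log levels most like that of Trim28 among 12164 genes were those of Cobl (Pearson's r 0.997), Nup133 (0.994) and Nacc1 (0.993). Cobl had 126 TPM in parental cells, 26.8 with DMSO, 12.3 at 24 h and 4.25 at 96 h. Of the members, Cbx1 had an r of 0.747 and Trim24 of -0.714. With 7 points that share their control line and depth, these are descriptions.

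Peaks at the gene starts of the members were compared between DMSO and 24 h of dTAG-13, within 1 kb either side of an annotated start. Peaks were called per library, and peak numbers differed widely, at 19853 and 19194 for RNAPII with DMSO against 8182 and 7689 with dTAG-13, and at 63045 and 58925 against 15335 and 14551 for MED23. For each of these factors a single input was available per condition. The study describes its RNAPII ChIP as made with a reference genome from outside the cells, and reports an unchanged overall RNAPII level after 24 h. The folds below are ratios over input, and whether they were scaled to that reference is not given in the sources used here. A lower fold thus need not mean less RNAPII. H3K27Ac, the mark of active promoters and enhancers, was called in all libraries at 9 members with DMSO and at 9 with dTAG-13, against 79.2% and 52.4% of 12057 expressed protein-coding genes. RNAPII had a start peak in both libraries at 9 members with DMSO and 8 with dTAG-13 (70.0% and 35.9%), and MED23 at 10 and 6 (91.6% and 28.2%). No test was made on peaks.

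The RNAPII peak at Trim28 had a fold enrichment over input of 21.6 and 21.8 with DMSO and 10.1 and 9.97 with dTAG-13. The Trim24 peak went from 13.8 and 14.5 to 3.61 and 3.74, although its mature RNA was higher at that time. Trim33 went from 9.88 and 9.52 to 4.20 and 3.76. These compare with a median over genes with a peak of 8.58 and 8.28 with DMSO and 5.66 and 5.52 with dTAG-13. The medians cover different genes, 8683 and 8701 with DMSO and 4949 and 4556 with dTAG-13. Genes without a peak drop out, so the medians do not give the fall of a typical gene. Cbx5 had the strongest RNAPII peak of the members in both conditions, at 37.1 and 34.1, then 29.8 and 27.3, and Cbx3 followed at 24.0 and 20.2, then 17.2 and 14.9. Cbx1 was at 6.24 and 6.32, then 4.17 and 3.08. The exception in direction was Chd4, at 3.71 and 4.23, then 5.95 and 4.73. Setdb1 had 7.75 and 7.27 with DMSO and no peak with dTAG-13, and Trim66 had none in either.

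MED23 at the start of Trim28 was at 11.9 and 12.2 fold with DMSO and 5.59 and 6.31 with dTAG-13, and at Cbx5 17.2 and 17.0, then 6.01 and 7.95. The highest MED23 peak within Trim28 lay outside the start windows, at 21.4 and 19.9 fold with DMSO and 8.90 and 8.30 with dTAG-13. At Trim24 it was 8.00 and 8.66, then 3.69 and 3.91. The median over genes with a peak was 8.21 and 7.96, then 4.34 and 4.49, over 11185 and 11199, then 4041 and 3657 genes. The MED23 peaks of Cbx1, Chd4, Setdb1 and Trim66 were called in neither dTAG-13 library, at a time when the number of peaks had dropped genome-wide. In the window around the Cbx1 start the 2 DMSO libraries differed, at 26.2 and 5.06, while peaks overlapping the gene itself reached 7.51 and 7.14.

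H3K9me3 within the gene was called in all 3 DMSO libraries at 2 members, Trim24 and Atf7ip, and in all 3 dTAG-13 libraries at 0, against 17.8% and 3.20% of the expressed genes. The Trim24 domain had a fold enrichment of 4.72, 5.90 and 4.39 over input in the 3 DMSO libraries, with -log10 q of 7.85, 17.5 and 8.31. The part shared by all 3 lies at chr6:37872307-37877659 (mm10), 5353 bases that begin 1496 bases after the gene start and hold an exon of 1 annotated transcript of Trim24. Of these bases 36.9% are repeat-masked, against 33.0% of the whole gene. Further peaks in all 3 DMSO libraries began 62984, 62858 and 62929 bases after the gene start, with a highest fold there of 3.87, 3.08 and 3.17. No H3K9me3 peak was called in Trim24 in any dTAG-13 library, which held 11474, 105690 and 147611 peaks in all. Of the 2141 genes with H3K9me3 in every DMSO library, 843 (39.4%) had none in any dTAG-13 library, and 844 (39.4%) had none in the dTAG-13 replicates 2 and 3, so that Trim24 is 1 of many such genes. Atf7ip had weaker peaks, of at most 3.24, 2.85 and 2.99 fold with DMSO, and with dTAG-13 in replicate 2 only, at 2.63. At 24 h Trim24 was at 0.54 in mature and 0.17 in nascent RNA (0.25 and -0.07 after centring, the nascent values not called), and Atf7ip at 0.15 and 0.47 (-0.13 and 0.23 after centring); their link to the loss of H3K9me3 peaks was not tested.

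**Figure D5:**
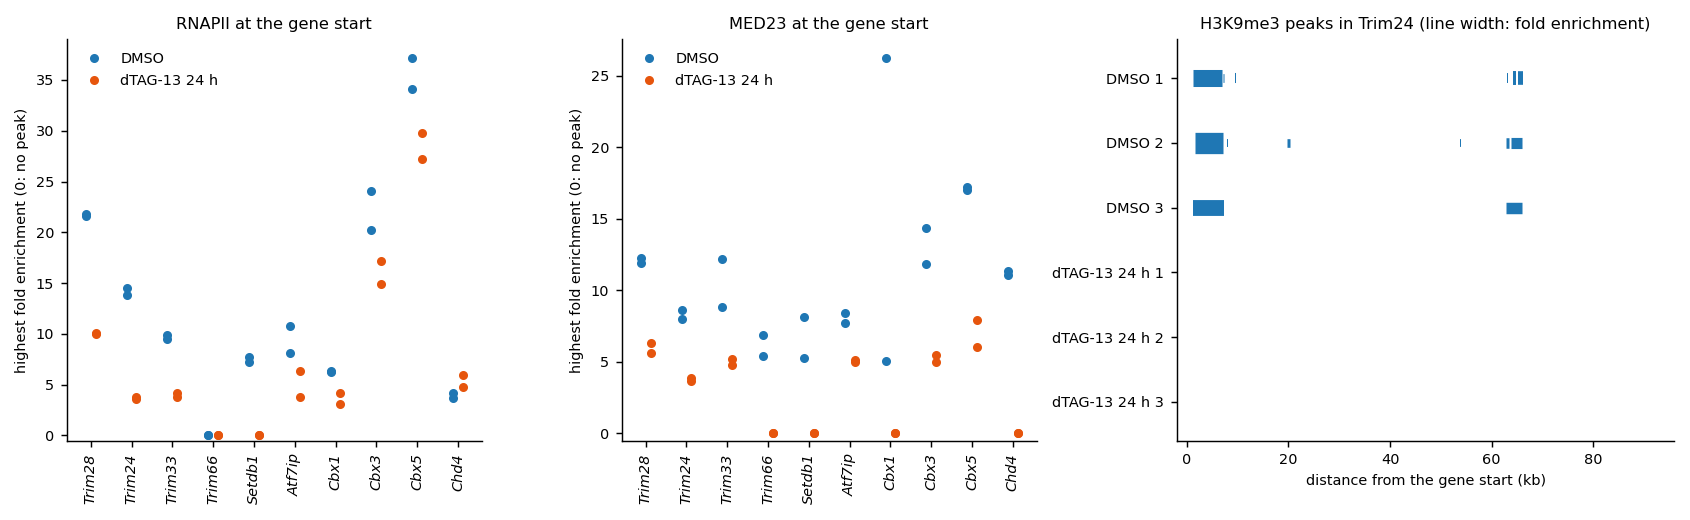
Highest fold enrichment over input of RNAPII and MED23 peaks within 1 kb of the gene start, per library and member (0 where no peak was called), and H3K9me3 peaks along Trim24 by distance from its start, with line width as fold. Trim24 RNAPII drops from about 14 to below 4, and the H3K9me3 domain beginning 1496 bases after the start is seen in the DMSO libraries and not with dTAG-13.

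The wider pathway was covered by lists of partner genes that hold none of the members. Of 15 tested genes of H3K9 methylation and ERV silencing, 2 were higher and 12 lower in mature RNA at 96 h. The HP1 binding list holds genes whose proteins bind HP1 themselves or belong to a complex that does. Of its 8 tested genes, 0 were higher and 7 lower, by limma as above and beside the same background of 42.9% and 37.4%. The list medians were -0.41 and -0.34. Atrx, a remodeller at repeats, went from 142 TPM with DMSO to 61.2 (-1.20 ± 0.06), Fam208a, the TASOR subunit of the HUSH complex, from 40.8 to 18.8 (-1.10 ± 0.05), and the chromatin assembly subunit Chaf1b from 82.2 to 37.4 (-1.13 ± 0.04). The adjusted p was 7.43e-11, 6.61e-11 and 2.63e-12.

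The NuRD list split evenly at 96 h, with 6 higher and 6 lower of 13 and a median of 0.01. Past 2-fold, 2 of the list were higher and 1 lower, against 3634 and 2228 of all 17922 genes. The 2 other CHD remodellers went in opposite directions, as Chd3 rose from 15.2 to 53.4 TPM (1.78 ± 0.07) and Chd5 fell from 4.72 to 0.342 TPM (-2.64 ± 0.10), with adjusted p of 1.14e-11 and 7.6e-12. Mbd2 rose from 27.1 to 84.8 TPM (1.63 ± 0.07, adjusted p 1.65e-11). In NPCs Chd3 reached 157 TPM (3.32 ± 0.07). Of 10 SUMO pathway genes 3 were higher and 5 lower, among them the E1 subunit Uba2, from 420 to 207 TPM (-1.01 ± 0.04, adjusted p 1.22e-11). At 24 h the counts were 5 higher and 5 lower for H3K9 methylation and ERV silencing, 2 and 1 for HP1 binding, 3 and 6 for NuRD and 3 and 6 for SUMO (background 42.9% and 25.0%). In the hairpin line with dTAG-13 they were 5 and 3, 2 and 1, 5 and 1, and 2 and 1, against 41.2% and 12.8% of all genes. With Dox added limma called no gene of the 4 lists against DMSO, where it called 8 higher and 2 lower of all 16166 genes. In nascent RNA at 24 h the counts were 4 and 1 of 15 for H3K9 methylation and ERV silencing, and 5 and 0 of 7 for HP1 binding. They were 4 and 1 of 11 for NuRD and 1 and 1 of 10 for SUMO (32.3% and 5.59% of all genes). The HP1 binding list had a median of 0.37 there, against 0.21 over all genes. In mature RNA its median was -0.001 at 24 h and -0.34 at 96 h. Counts and medians of the 4 lists are without centring, which shifts changes down by 0.24 in nascent RNA at 24 h. In mature RNA at 96 h that shift is 0.28.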

How the data were processed

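The 10 members, the partner lists and the tests were chosen with earlier results of these data known. Processing by the authors was as follows. TT-SLAM-seq reads with T-to-C conversions were counted per gene with strand (SLAM-DUNK, htseq-count), and the authors deposited FPKM per gene span without spike-in. RNA-seq reads were trimmed (cutadapt 2.4), aligned with STAR 2.7.5a and quantified with StringTie 2.0.6, and the authors deposited TPM, with coverage as a signal column, which served here for relative depth only (coverage over its geometric mean across libraries, median over genes). ChIP-seq peaks on mm10 were called per library with MACS2, and the deposited values are fold enrichment as a ratio over input and −log10 q-values. Versions and tools are from the submitters' processing notes and the study's methods.

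Genes with at least 0.5 FPKM or 1 TPM in at least 3 libraries were tested with limma 3.58.1 (R 4.3.3) on log2(value + 0.5) with a mean-variance trend, 2-sided, adjusted by Benjamini-Hochberg over all genes tested in a comparison. All members are named; from each partner list, at most 3 genes past 2-fold at 96 h with the smallest adjusted p. Fits were checked on simulated data. FPKM steps gave whole reads (100% of values up to 20 reads, tolerance 0.01), used for voom as an added alternative. Alternatives were another filter, centring, FPKM for TPM, only the 2 groups compared, the replicate number as a block and each library left out. Replicate numbers did not pair the libraries (correlations of deviations -0.20 to 0.18 over 13 comparisons). Hi-C, single-cell and signal track data were not used here.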

Additional observations from a re-analysis of the deposited data

Results flagged for a closer look

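For 6 members, the change after 24 h of dTAG-13 differed between the hairpin line and the time course by the interaction term in limma. Trim28 fell less in the hairpin line, by a difference of 0.36 on the log2 scale (-0.39 against -0.74). Trim33 differed by 0.44 (0.11, not called, against -0.33), Cbx5 by 0.31 (0.30 against -0.01) and Chd4 by 0.21 (0.01, not called, against -0.20). Setdb1 differed by -0.22 (-0.09, not called, against 0.13) and Atf7ip by -0.26 (-0.11, not called, against 0.15), and these calls did not hold after centring. Line and library kit, and by the labels the feeders and the time of the DMSO control, cannot be told apart here.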

How the results depend on the processing

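Numbers of members called that moved by over 1.5 times were as follows. In TT-SLAM-seq at 2 h there were 0 with a mean of at least 5 FPKM and 0 with only the 2 groups fitted; at 6 h there were 1 after centring, 0 with that filter and 0 with only the 2 groups; at 24 h there were 0 with that filter, which kept 2 of the 9 members. In RNA-seq at 2 h, 1 was called with only the 2 groups. In the hairpin line with dTAG-13, 8 were called after centring. Leaving out each library in turn gave 0 to 1 in TT-SLAM-seq at 2 h, 0 to 1 at 6 h and 0 to 2 in RNA-seq at 2 h. With the 10000 peaks of highest fold per library, members with a peak in every library were 4 for H3K27Ac with dTAG-13, 1 for H3K9me3 with DMSO and 4 for MED23 with DMSO. Among changes called in at least 1 of the settings, signs turned after centring for 9, those of Cbx5 nascent RNA at 24 h (-0.21, and -0.26 in voom with median-ratio size factors), of mature RNA at 24 h for Setdb1 (-0.16) and Atf7ip (-0.13), of Chd4 in the hairpin line with dTAG-13 (-0.15), of parental Trim24 (0.041), Trim33 (0.14), Cbx1 (0.15) and Chd4 (0.023), and of Trim33 in NPCs (-0.33). A further 14 signs turned between values called in neither setting, 7 of them with dTAG-13 and Dox against DMSO. Centring by construction sets the median gene of every library level; causes were not tested otherwise. The replicate number as a block, which marks no shared sample, gave 1, 2 and 2 members in TT-SLAM-seq, 2, 5, 8, 9 and 8 in the time course (the latter for 96 h against 24 h), 4, 0 and 5 in the hairpin line, 7 in parental cells, 7 in NPCs and 6 for the interaction; the calls of Trim33 in TT-SLAM-seq at 24 h (adjusted p 0.0661) and of Cbx5 in RNA-seq at 6 h (0.0529) were lost. Trim66 nascent values rested on 1 to 8 reads per library and were not tested.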
